A study of Mus musculus with 30 samples.

Results

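The 5 genes described here are the transcription factor gene Myc, 3 genes of amino acid uptake at the cell surface (Slc7a5, Slc3a2 and Slc1a5) and Odc1, which encodes ornithine decarboxylase. They were chosen by name. Each gene is represented by the probe set that carries its symbol alone and, where there were several, the one with the highest mean over the 30 arrays. All 5 genes had such a probe set, out of 17097 genes with one. Myc was read by 1424942_PM_a_at, Slc7a5 by 1418326_PM_at, Slc3a2 by 1425364_PM_a_at, Odc1 by 1427364_PM_a_at and Slc1a5 by 1440379_PM_at, with a second Slc1a5 probe set, 1416629_PM_at, set beside it where they differ. Every level of the 5 genes lay above the median of its array on 30 of 30 arrays.

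The mice were DO11.10 RAG2-/- BALB/c animals 8 to 10 weeks old. The DO11.10 transgene gives their CD4+ T cells 1 receptor specificity, for an ovalbumin (OVA) peptide, and without RAG2 the animals make no other T cells and no B cells, so every group, controls included, is a model of 1 clone of T cells in a host without other lymphocytes that need receptor rearrangement. The unimmunised group got nothing. The primed group was injected with 100 ug OVA per mouse in the adjuvant CFA. Primed mice were also given control IgG or abatacept, both at 10 mg/kg. Abatacept is a fusion of the CTLA4 extracellular part with an immunoglobulin Fc that binds CD80 and CD86 and so keeps them from CD28. The orally tolerised group was fed OVA in the drinking water; the labels give its amount in 2 units that do not match, so it is left out here. Each of the 10 groups (5 conditions, each read in CD4+ and CD11c+ cells) had 3 arrays. At day 10 the CD4+ cells were taken by negative selection from axillary nodes of the 3 primed groups, from mesenteric nodes of tolerised mice and from pooled nodes and spleen of unimmunised mice, whereas CD11c+ cells came from pooled nodes and spleen throughout; purity was over 90% for both. The labels do not say that the 3 arrays of a group are separate mice or how many animals went into one, so a p-value here speaks only of how far these samples spread, and that spread may be technical.

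As background, MYC is a transcription factor that rises early when T cells are activated and drives growth, ribosome production and amino acid use. SLC7A5 (LAT1) carries large neutral amino acids such as leucine into the cell and reaches the surface only as a heterodimer with SLC3A2, the heavy chain of CD98, which also serves other light chains of the SLC7 family. SLC1A5 (ASCT2) exchanges neutral amino acids including glutamine. ODC1 makes putrescine from ornithine, the first step of polyamine synthesis, and is a classical MYC target. Leucine entering through SLC7A5 is sensed by the mTORC1 kinase complex, and activated T cells without SLC7A5 do not sustain growth.

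Of the members, the RefSeq promoter table (GRCm38.p6) matched Odc1 and Slc3a2. Their promoters are shown because Odc1 had the widest range over CD4+ groups of all 5 genes and Slc3a2 differed between groups in both cell types. Each runs from 250 bases before to 50 bases after a transcript start that the table lists, 5′ to 3′ on the strand of the gene, and no letter is capitalised because neither motif searched was found. Odc1 lies on the plus strand at chr12:17544623-17544922 and Slc3a2 on the minus strand at chr19:8713848-8714147. The Slc3a2 window lies inside the annotated span of the gene, so it covers 1 of its starts and not the outermost.
Odc1: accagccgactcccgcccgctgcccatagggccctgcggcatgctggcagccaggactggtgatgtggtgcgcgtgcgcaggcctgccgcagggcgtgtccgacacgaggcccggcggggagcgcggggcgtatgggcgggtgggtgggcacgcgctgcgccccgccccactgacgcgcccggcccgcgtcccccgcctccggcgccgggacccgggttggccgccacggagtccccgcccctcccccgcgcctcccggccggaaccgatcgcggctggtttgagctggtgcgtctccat
Slc3a2: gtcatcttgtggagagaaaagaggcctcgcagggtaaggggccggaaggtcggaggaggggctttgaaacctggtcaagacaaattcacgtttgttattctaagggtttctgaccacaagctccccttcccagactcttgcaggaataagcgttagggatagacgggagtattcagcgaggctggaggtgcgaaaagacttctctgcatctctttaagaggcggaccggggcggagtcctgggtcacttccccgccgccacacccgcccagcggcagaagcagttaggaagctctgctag
The Odc1 window was 78% G and C and the Slc3a2 window 56%. Both strands were searched for CACGTG, the E-box bound by MYC with its partner MAX, and for TGATGNAA, a core of the amino acid response element bound by ATF4; neither motif holds the other. Neither window held either one, and sequence of these genes outside the windows was not searched. Of 32851 promoters of 300 bases, 7.15% held CACGTG and 3.97% held TGATGNAA.

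The arrays matched their labelled cell type on defining genes: Cd3e was at 10.69 to 11.65 (log2) on the CD4+ arrays and at 6.82 to 8.78 on the CD11c+ arrays, and Itgax, which encodes CD11c, was at 9.56 to 10.29 on CD11c+ and 3.30 to 7.04 on CD4+ arrays. Arrays of one group correlated at r = 0.983 to 0.995 across probe sets. The 3 CD4+ unimmunised arrays stood apart. Their mean level over 7 neutrophil markers was 10.61 to 10.86 against 3.54 to 4.06 in the primed group, over 6 erythroid markers 9.51 to 9.81 against 4.08 to 4.62, and over 7 red pulp macrophage markers 8.63 to 8.91 against 3.33 to 3.49, with all markers of these 3 lists above the array median on all 3 arrays. Monocyte and macrophage markers averaged 7.68 to 7.98 against 4.55 to 4.82 and mast cell and basophil markers 6.11 to 6.38 against 3.21 to 3.28. Tolerised CD4+ arrays also carried mast cell and basophil markers, at 6.17, 6.17 and 4.52, so that replicates 1 and 2 were level with the unimmunised arrays, with red pulp macrophage markers at 3.83 to 5.12 and neutrophil markers at 4.43 to 5.85. The 10 T cell markers of the unimmunised arrays averaged 8.27 to 8.38 against 9.65 to 9.79. Amy1, which encodes salivary amylase, was above 7 on 5 of 15 CD11c+ arrays (unimmunised replicate 2, control IgG replicates 2 and 3, abatacept replicate 3 and tolerised replicate 3) and at most 3.37 on CD4+ arrays. The Y-linked gene Eif2s3y also differed between groups. It was at 8.49 to 8.96 in primed and tolerised CD4+ cells, 8.53 to 8.64 in primed CD11c+ cells and 8.76, 5.92 and 8.20 on the control IgG CD11c+ arrays, and at most 2.84 in the other 6 groups. Xist, the transcript of the inactive X chromosome, was at 10.27, 9.31 and 10.89 on the primed CD4+ arrays and 6.29, 11.02 and 8.88 on the control IgG CD11c+ arrays, which thus carried both signals. It was at 7.28, 5.61 and 5.62 in tolerised CD4+ and 4.55, 4.84 and 4.12 in primed CD11c+ cells, and at 10.93 to 11.52 in the other 6 groups. Sex of the animals therefore cannot be told apart from group where primed or tolerised CD4+ cells, or primed or control IgG CD11c+ cells, are set against other groups.

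Myc was higher in CD4+ than in CD11c+ cells and highest in unimmunised CD4+ cells. In CD4+ cells it stood at 9.16, 9.0 and 9.0 on the unimmunised arrays, 8.37, 8.58 and 8.22 on the primed, and 8.52, 8.52 and 8.32 on the control IgG arrays. The abatacept arrays read 8.70, 8.63 and 8.70 and the tolerised arrays 8.54, 8.40 and 8.69. The unimmunised arrays lay above all other CD4+ arrays, while the other 4 CD4+ groups each overlapped with the neighbour in the order of their means. In CD11c+ cells Myc read 8.15, 7.97 and 7.94 (unimmunised), 8.13, 8.17 and 8.04 (primed), 8.05, 7.90 and 7.73 (control IgG), 8.22, 8.21 and 7.76 (abatacept) and 8.15, 7.38 and 7.96 (tolerised). All 5 CD11c+ groups overlapped, and their means spanned 0.28 on the log2 scale against 0.66 in CD4+ cells.

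Odc1 had one group far above the rest. Its CD4+ levels were 9.19, 8.89 and 9.38 in unimmunised mice, 7.45, 7.85 and 7.61 in primed mice and 7.70, 7.78 and 7.56 under control IgG. Under abatacept they were 7.42, 7.20 and 7.36 and after oral tolerisation 7.66, 7.35 and 7.45. The lowest unimmunised array lay above every other array of the study, and the group means of the CD4+ cells spanned 1.83. In CD11c+ cells Odc1 read 7.61, 8.37 and 7.90 (unimmunised), 7.75, 8.13 and 7.75 (primed), 7.94, 8.01 and 7.60 (control IgG), 7.80, 8.07 and 7.79 (abatacept) and 8.10, 7.49 and 7.67 (tolerised). These 5 groups overlapped throughout and their means spanned 0.20.

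Slc7a5, the LAT1 light chain, varied most among CD11c+ cells. There it read 6.19, 6.30 and 6.44 in unimmunised mice, 6.94, 7.16 and 7.06 in primed mice and 6.85, 7.04 and 6.90 under control IgG. Under abatacept it read 6.44, 6.48 and 6.41 and in tolerised mice 7.13, 6.93 and 7.22. The unimmunised and abatacept arrays lay together at the bottom, with all 6 below the lowest of the other 9 CD11c+ arrays. In CD4+ cells the levels were 7.46, 7.20 and 7.28 (unimmunised), 7.35, 7.14 and 7.40 (primed), 6.99, 7.43 and 7.03 (control IgG), 7.15, 6.77 and 6.70 (abatacept) and 7.30, 6.95 and 7.28 (tolerised). The CD4+ groups overlapped along the whole order of their means, with abatacept last at 6.88 ± 0.24 (SD, n = 3).

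Slc3a2, the CD98 heavy chain, had the opposite order among CD11c+ cells. It read 8.61, 8.84 and 8.83 in unimmunised mice, 8.16, 8.13 and 7.98 in primed mice and 8.11, 8.48 and 8.10 under control IgG. Abatacept arrays read 8.78, 8.74 and 8.43 and tolerised arrays 7.71, 7.97 and 7.95. Unimmunised and abatacept arrays were the high ones here, with control IgG replicate 2 above the lowest abatacept array and the tolerised arrays at the bottom. In CD4+ cells it read 7.51, 7.79 and 7.71 (unimmunised), 7.55, 7.37 and 7.50 (primed), 7.42, 7.19 and 7.13 (control IgG), 7.86, 7.82 and 7.68 (abatacept) and 7.38, 7.55 and 7.35 (tolerised). The 3 abatacept arrays lay above all control IgG, primed and tolerised CD4+ arrays and overlapped with the unimmunised ones. All 5 CD11c+ group means lay above all 5 CD4+ group means.

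Slc1a5, the glutamine exchanger, followed the order of Slc7a5 in part. In CD11c+ cells it read 4.97, 5.76 and 5.47 (unimmunised), 5.88, 6.14 and 6.20 (primed), 5.99, 5.92 and 6.14 (control IgG), 5.38, 5.58 and 5.68 (abatacept) and 6.04, 6.38 and 6.09 (tolerised). As with Slc7a5, the 6 unimmunised and abatacept arrays lay below the other 9. In CD4+ cells it read 6.34, 5.84 and 5.92 (unimmunised), 6.54, 6.47 and 6.39 (primed), 6.11, 6.29 and 6.36 (control IgG), 6.60, 6.44 and 6.70 (abatacept) and 6.19, 6.54 and 6.53 (tolerised). Neighbouring CD4+ groups overlapped. The second probe set was lower, at 5.55 over all arrays, and was below the array median on 1 CD11c+ unimmunised array.

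**Figure D1:**
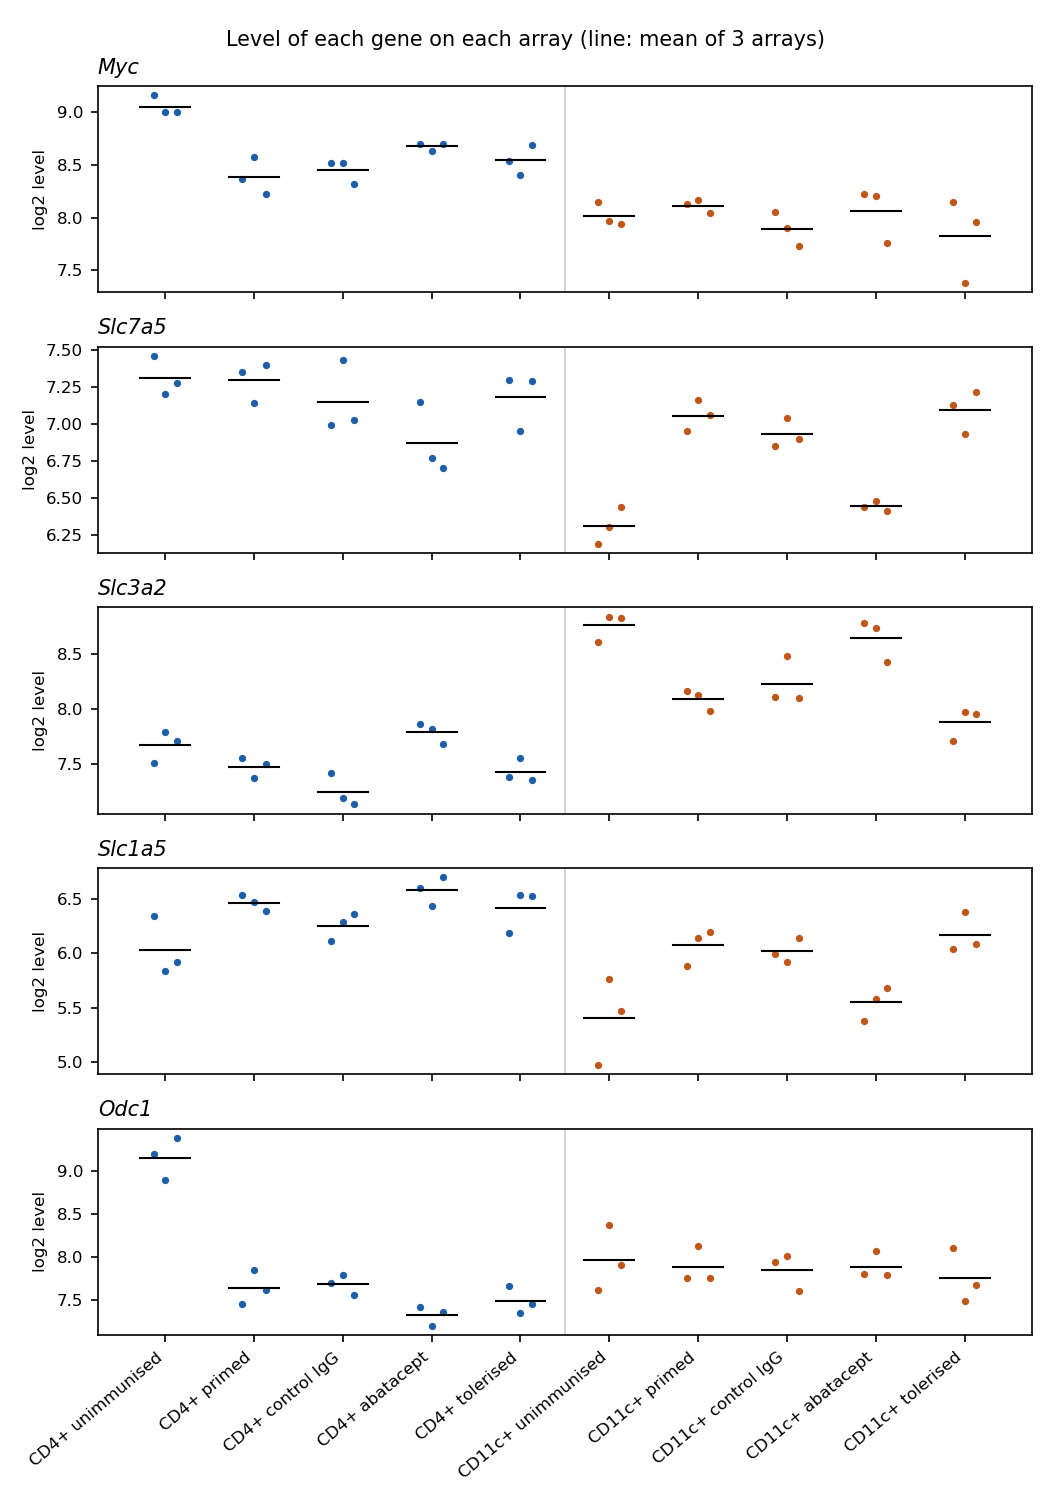
RMA log2 level (vertical axis) of Myc, Slc7a5, Slc3a2, Slc1a5 and Odc1 on each of the 30 arrays, in 5 conditions of CD4+ T cells (blue) and CD11c+ cells (orange); points are arrays and lines the mean of 3. Odc1 of unimmunised CD4+ cells stands above all other arrays, and in CD11c+ cells Slc7a5 and Slc1a5 are low where Slc3a2 is high, in the unimmunised and abatacept groups.

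Against unimmunised mice, primed CD4+ T cells had less Myc and Odc1 and more Slc1a5. Of the 5 genes 3 were called (adjusted p under 0.05), 2 lower and 1 higher, where 47.4% of 10322 genes tested were called, 24.2% lower and 23.3% higher. Odc1 fell by 1.52 on the log2 scale (2.86-fold, standard error 0.14, adjusted p = 8e-07 by limma) and Myc by 0.66 (1.58-fold, SE 0.10, adjusted p = 0.00015), with no overlap of arrays in either. Slc1a5 was 0.43 higher (SE 0.13, adjusted p = 0.017), and its call was lost when unimmunised replicate 2 (adjusted p = 0.08), unimmunised replicate 3 (0.07) or primed replicate 1 (0.057) was left out. Slc7a5 differed by -0.02 (95% interval -0.34 to 0.30) and Slc3a2 by -0.19 (-0.41 to 0.02). In a bulk sample, fewer cells of a type and less RNA per cell cannot be told apart. The neutrophil, erythroid and macrophage markers given above were higher in the same unimmunised arrays, as were 13 markers of dividing cells (9.10 to 9.41 against 8.60 to 8.74), and their part in these differences was not tested. The tissue also differed, pooled nodes and spleen against axillary nodes. Eif2s3y averaged 8.62 in primed and 2.56 in unimmunised CD4+ cells, so sex cannot be told apart from group.

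Tolerised CD4+ T cells stood in the same relation to the unimmunised ones, a comparison that shares the unimmunised arrays with the one before. Again 3 of 5 genes were called, 2 lower and 1 higher, where 49.5% of all genes were, 29.3% lower and 20.3% higher. Odc1 fell by 1.67 (adjusted p = 3.4e-07) and Myc by 0.51 (adjusted p = 0.0011). Slc1a5 was 0.39 higher (adjusted p = 0.028), and this call was lost under 6 of 13 alternatives, where its adjusted p reached 0.12. Its second probe set was 0.21 higher. Slc7a5 differed by -0.14 (95% interval -0.46 to 0.18). The mast cell, red pulp macrophage and neutrophil markers of the tolerised arrays and the markers of the unimmunised arrays, both given above, enter here, and their part was not tested. Tissue differed too, mesenteric nodes against pooled nodes and spleen. Eif2s3y averaged 8.89 against 2.56, so sex cannot be told apart from group. Slc3a2 differed by -0.24 with an adjusted p of 0.063, and it was called without unimmunised replicate 1 (-0.32, adjusted p = 0.027) or without tolerised replicate 2 (-0.30, adjusted p = 0.04).

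In CD11c+ cells priming went with more Slc7a5 and Slc1a5 and less Slc3a2, while Myc and Odc1 gave no call. Here 3 of 5 genes were called, 2 higher and 1 lower, where 38.6% of 10203 genes were, 25.5% higher and 13.2% lower. Slc7a5 rose by 0.74 (1.67-fold, SE 0.09, adjusted p = 8e-05) and Slc1a5 by 0.67 (1.59-fold, SE 0.17, adjusted p = 0.0074). Slc3a2 fell by 0.67 (1.59-fold, SE 0.13, adjusted p = 0.0012). For each of these 3 genes the primed arrays lay wholly to one side of the unimmunised ones. The second Slc1a5 probe set was 1.03 higher. Myc differed by 0.09 (95% interval -0.28 to 0.47) and Odc1 by -0.08 (-0.51 to 0.35). Without the arrays with Amy1 above 7, the differences were 0.74, 0.85 and -0.63 for Slc7a5, Slc1a5 and Slc3a2, all 3 still called. Eif2s3y averaged 8.58 in primed and 2.59 in unimmunised CD11c+ cells, so sex cannot be told apart from group.

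Tolerised CD11c+ cells differed from unimmunised ones in the same 3 genes. All 3 were called, 2 higher and 1 lower, where 48.6% of all genes were, 31.9% higher and 16.7% lower. Slc7a5 was 0.78 higher (adjusted p = 2.6e-05), Slc1a5 0.77 higher (adjusted p = 0.0022) and Slc3a2 lower by a log2 difference of -0.88 (adjusted p = 9.3e-05). These values share the unimmunised arrays with the priming comparison. Both groups were at the low level of Eif2s3y, so the Y-linked signal did not differ here. Without the Amy1 arrays the values were 0.71, 0.99 and -0.88.

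Cell type markers moved along with these genes in the CD11c+ fraction. The 7 red pulp macrophage markers, all above the array median in every CD11c+ group, averaged 11.01 to 11.12 on unimmunised arrays and 10.90 to 11.06 on abatacept arrays, against 9.94 to 10.18 (primed), 10.06 to 10.64 (control IgG) and 9.02 to 9.84 (tolerised). The 6 conventional dendritic cell markers ran the other way, at 7.78 to 8.06 (unimmunised) and 8.05 to 8.25 (abatacept) against 8.95 to 9.07, 8.53 to 8.79 and 8.53 to 8.82. Thus the order of the red pulp macrophage list over the 5 groups was that of Slc3a2, and the groups with the lowest dendritic cell list were those lowest in Slc7a5 and Slc1a5. Dividing cell markers averaged 7.17 to 7.45 (unimmunised), 8.00 to 8.08 (primed), 7.85 to 7.94 (control IgG), 7.45 to 7.77 (abatacept) and 7.90 to 8.55 (tolerised). Neutrophil markers averaged 6.87 to 8.03, 9.57 to 9.84, 8.21 to 8.90, 7.84 to 8.51 and 9.31 to 10.56 in the same order. The 10 T cell markers, of which 6 or 7 lay above the array median, averaged 5.47 to 6.19 (unimmunised), 6.26 to 6.49 (primed), 6.16 to 6.45 (control IgG), 5.79 to 5.96 (abatacept) and 6.45 to 6.87 (tolerised). The group means of the T cell, neutrophil and dividing cell lists each had the order of Slc7a5 and of Slc1a5 and the reverse of that of Slc3a2. The part of these cells in the levels of Slc7a5, Slc3a2 and Slc1a5 was not tested.

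**Figure D2:**
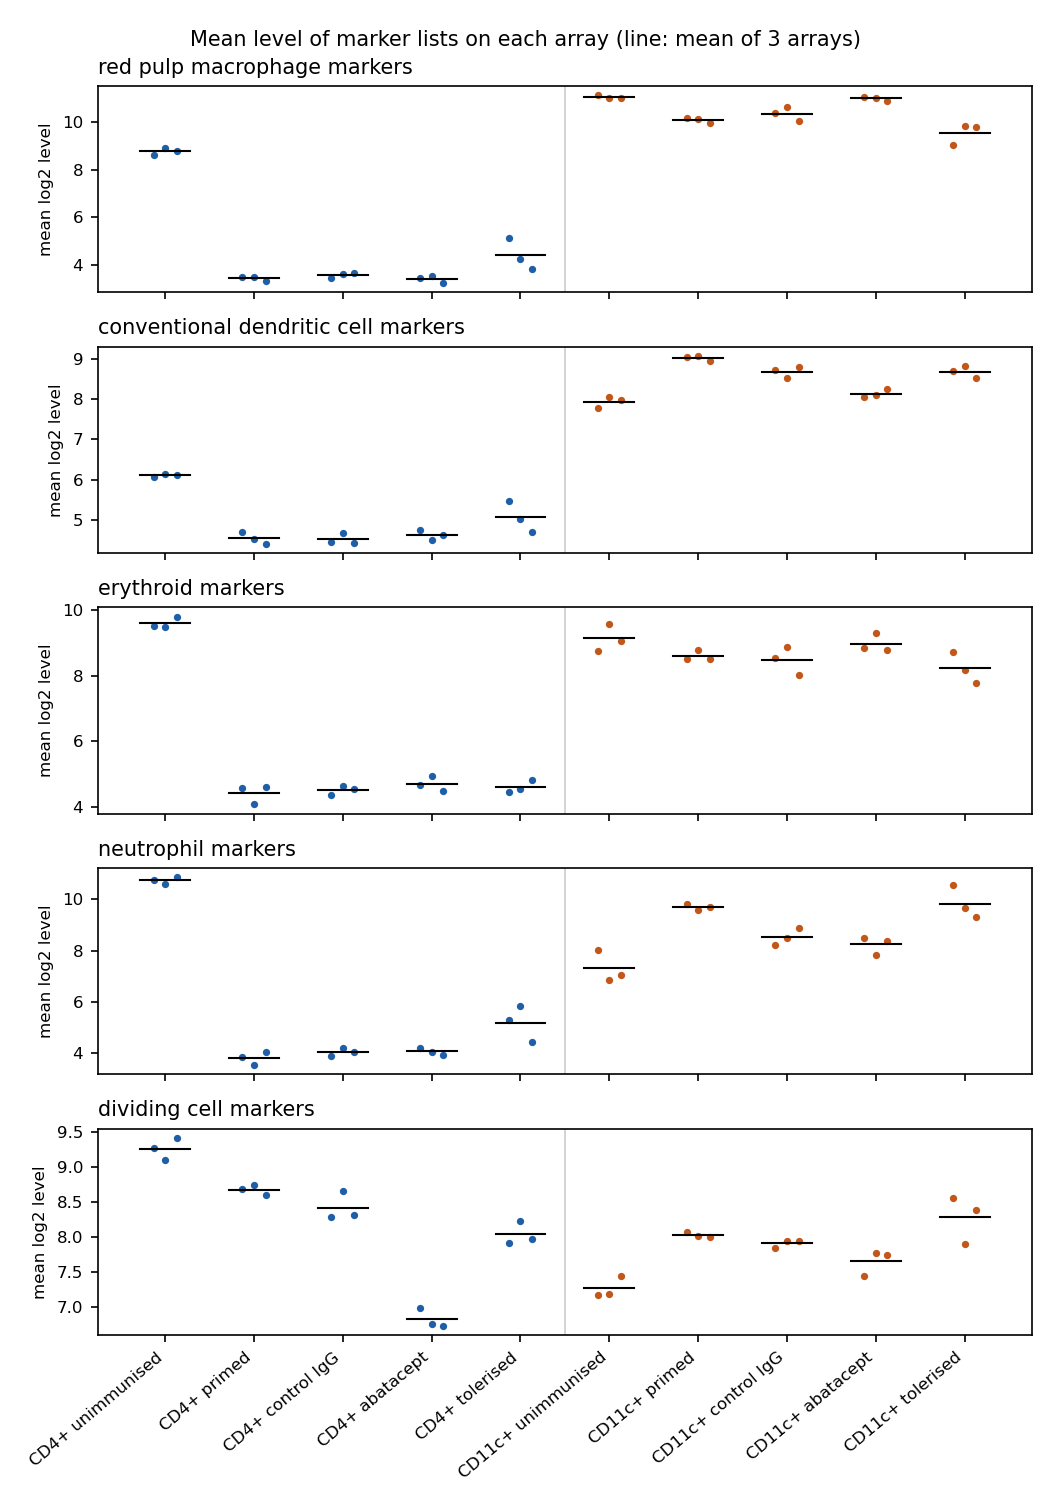
Mean log2 level of 5 marker lists (vertical axis) on each array, by condition in CD4+ T cells (blue) and CD11c+ cells (orange); points are arrays and lines the mean of 3. Red pulp macrophage markers are highest in unimmunised and abatacept CD11c+ cells, and the 3 unimmunised CD4+ arrays carry erythroid, neutrophil and red pulp macrophage markers at levels the other CD4+ arrays do not reach.

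The contrast between an immunising and a tolerising route to the same antigen gave no call for the 5 genes in either cell type, which does not show that they were alike. None was called between tolerised and primed CD4+ cells by limma, where 14.7% of genes were, or between tolerised and primed CD11c+ cells, where 2.84% were. At an unadjusted p under 0.05 the count was also 0 in both. The widest of the 10 differences was that of Myc in CD11c+ cells, -0.28 with a 95% interval of -0.66 to 0.09, and it was -0.058 without tolerised replicate 2. The tolerised CD4+ arrays differ from the primed ones in tissue and in the markers given above. Xist averaged 6.17 in tolerised and 10.15 in primed CD4+ cells, and Eif2s3y 2.62 in tolerised and 8.58 in primed CD11c+ cells. Sex therefore cannot be told apart from group in either cell type. In CD4+ cells Slc3a2 differed by -0.05 (-0.26 to 0.17) and Slc7a5 by -0.12 (-0.44 to 0.20). Control IgG also gave no call against untreated primed mice, where 0.0872% of genes in CD4+ and 0.0196% in CD11c+ cells were called. The unadjusted p was under 0.05 for 1 of the 10 differences by limma, that of Slc3a2 in CD4+ cells at -0.23 (adjusted p = 0.58). Eif2s3y averaged 2.51 in control IgG and 8.62 in primed CD4+ cells, so sex cannot be told apart from group there.

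Under abatacept, CD4+ T cells of primed mice had more Slc3a2 than under control IgG. It was the 1 of 5 genes called, and higher, where 16.7% of genes were called, 3.33% higher and 13.4% lower. Slc3a2 rose by 0.54 (1.46-fold, SE 0.10, 95% interval 0.33 to 0.76, adjusted p = 0.0026), with all 3 abatacept arrays above all 3 control arrays. Odc1 differed by -0.36 (-0.65 to -0.06, adjusted p = 0.091), Myc by 0.23 (0.00 to 0.45, adjusted p = 0.16) and Slc7a5 by -0.27 (-0.60 to 0.05, adjusted p = 0.24). Slc1a5 differed by 0.33 (0.04 to 0.62, adjusted p = 0.12) on the brighter probe set and by -0.41 on the other, so no direction is given for it. Dividing cell markers averaged 6.74 to 6.99 under abatacept against 8.28 to 8.66 under control IgG, with all 13 above the array median in both; their part in the difference of Slc3a2 was not tested. Eif2s3y was at its low level in both groups. Against tolerised CD4+ cells, with the same abatacept arrays, Slc3a2 was again the 1 gene called, 0.36 higher (adjusted p = 0.021), where 23.3% of genes were called, 7.54% higher and 15.8% lower; that call was lost under 6 of 13 alternatives, with an adjusted p of up to 0.069. In that comparison mast cell and basophil markers were at 3.34 to 3.63 under abatacept against 4.52 to 6.17, red pulp macrophage markers at 3.23 to 3.52 against 3.83 to 5.12 and dividing cell markers at 6.74 to 6.99 against 7.92 to 8.23, and their part was not tested. Tissue differed as well, axillary against mesenteric nodes, and Eif2s3y was at 2.60 against 8.89, so sex cannot be told apart from treatment.

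In CD11c+ cells abatacept went with less Slc7a5 and more Slc3a2. Of the 5 genes 2 were called against control IgG, 1 higher and 1 lower, where 15.3% of genes were called, 6.43% higher and 8.86% lower. Slc7a5 fell by 0.49 (1.4-fold, SE 0.09, 95% interval -0.69 to -0.28, adjusted p = 0.0058), without overlap of arrays. Slc3a2 rose by 0.43 (1.34-fold, SE 0.13, 95% interval 0.15 to 0.70, adjusted p = 0.038), and 1 control array overlapped. Slc1a5 differed by -0.47 (-0.84 to -0.11, adjusted p = 0.08), without overlap, and by -0.53 on its second probe set. Myc differed by 0.17 and Odc1 by 0.03. The Slc3a2 call was lost under 7 of 14 alternatives, with an adjusted p of up to 0.16, among them the omission of control IgG replicate 1 or 3 or of abatacept replicate 1 or 2. Without the Amy1 arrays, which leaves 1 control array, Slc7a5 was at -0.39 (adjusted p = 0.2) and Slc3a2 at 0.66 (adjusted p = 0.055). Eif2s3y was high in the control IgG group and low under abatacept, so sex cannot be told apart from treatment here.

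Abatacept and tolerised CD11c+ cells were set against each other with arrays that also enter the comparisons of tolerised with unimmunised and of abatacept with control IgG. Of the 5 genes 3 were called, 1 higher and 2 lower, where 37.5% of genes were, 16.6% higher and 20.9% lower. Slc3a2 was 0.78 higher (1.71-fold, adjusted p = 0.00039), and the log2 difference was -0.65 for Slc7a5 (adjusted p = 0.00018) and -0.63 for Slc1a5 (adjusted p = 0.011). Both groups were at the low level of Eif2s3y. The 3 calls held without the Amy1 arrays, at 0.93, -0.57 and -0.73. The red pulp macrophage and dendritic cell lists given above differed between these groups too.

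**Figure D3:**
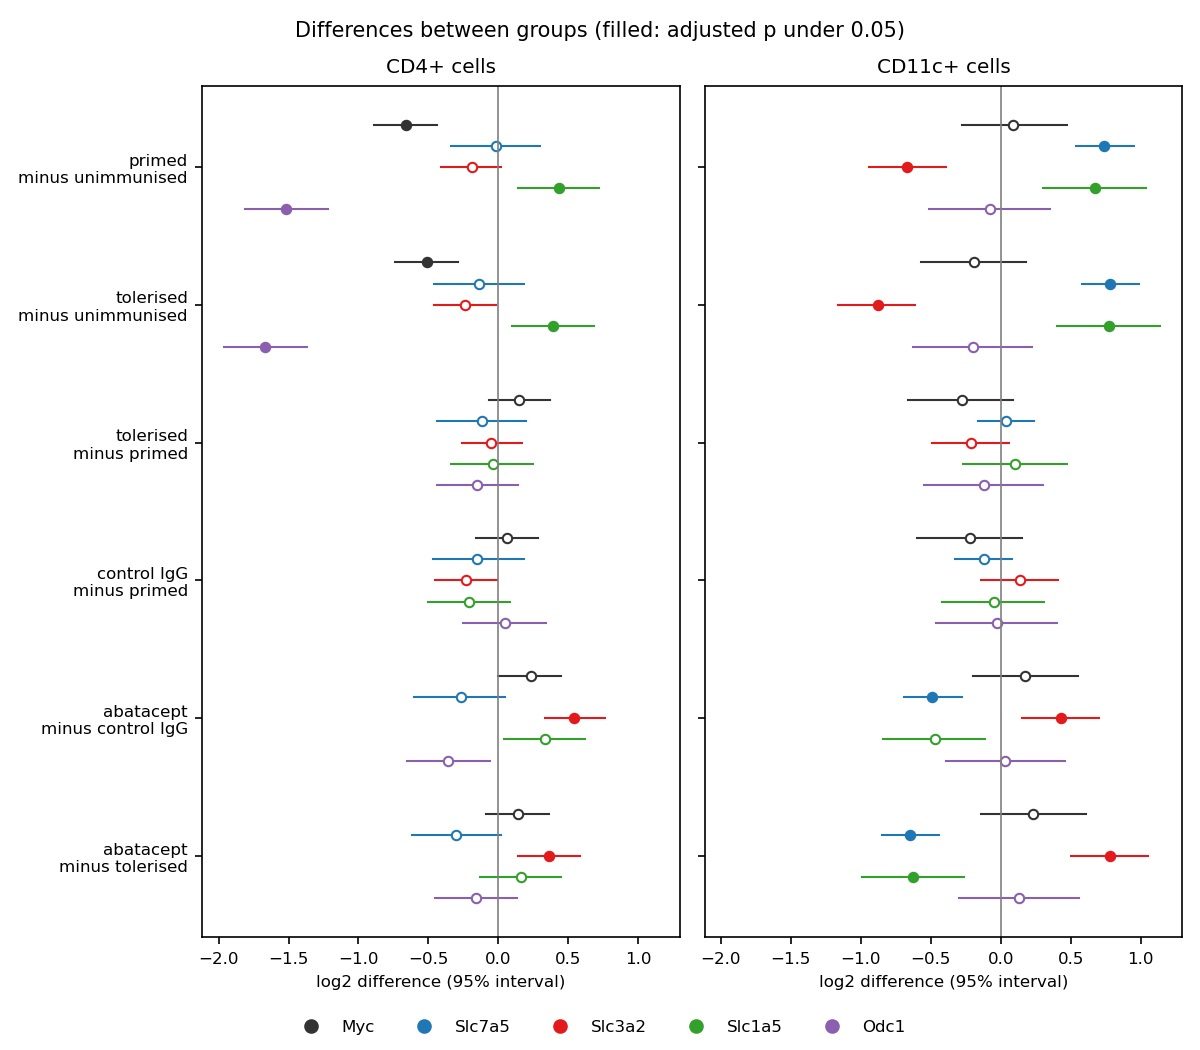
Log2 difference (horizontal axis) of each gene in 6 comparisons within CD4+ T cells (left) and CD11c+ cells (right); points are limma estimates, lines their 95% intervals, and filled points have an adjusted p under 0.05. Odc1 and Myc are filled to the left against unimmunised CD4+ cells, and Slc3a2 lies opposite to Slc7a5 and Slc1a5 in the CD11c+ comparisons with unimmunised or abatacept groups.

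The opposite course of the paired chains was also read within each array, as the log2 level of Slc7a5 minus that of Slc3a2. Because each probe set has its own response, the difference itself is no ratio of transcripts, and only its change between groups is used. In CD11c+ cells it was -2.45 ± 0.08 (SD, n = 3) in unimmunised and -2.21 ± 0.17 in abatacept mice, against -1.04 ± 0.15 in primed, -1.30 ± 0.13 in control IgG and -0.78 ± 0.24 in tolerised mice. All 6 arrays of the first 2 groups lay below the other 9. Each change between groups is the Slc7a5 difference minus the Slc3a2 difference, both given above, and adds no independent evidence. Priming changed the within-array value by 1.41, tolerisation by 1.66 and abatacept against control IgG by -0.91. In CD4+ cells it was -0.91 ± 0.18 under abatacept and between -0.35 and -0.09 in the other 4 group means, a change of -0.82 against control IgG. Over the 15 CD11c+ arrays Slc7a5 and Slc3a2 correlated at r = -0.85 and Slc7a5 and Slc1a5 at r = 0.83, and over the 12 lymph node CD4+ arrays at -0.46 and -0.30. These arrays share groups of 3, so the values only describe the plot.

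**Figure D4:**
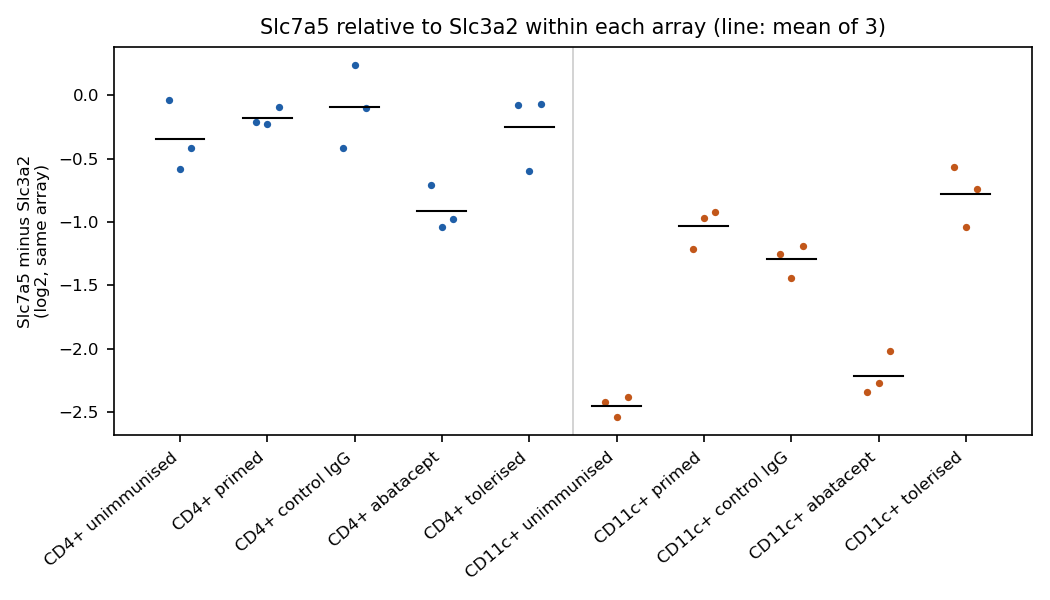
Log2 level of Slc7a5 minus log2 level of Slc3a2 on the same array (vertical axis) by condition, in CD4+ T cells (blue) and CD11c+ cells (orange); points are arrays and lines the mean of 3. The unimmunised and abatacept CD11c+ arrays lie near -2.45 and -2.21, below the other CD11c+ arrays, and abatacept is the lowest CD4+ group.

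Between the cell types, all 5 genes were called in unimmunised mice, where 66.4% of 10838 genes were, and all 5 under abatacept, where 68.7% were. In primed, control IgG and tolerised mice 2 of 5 were called each, beside 63.2%, 65.7% and 60.1% of genes. Slc3a2 was lower in CD4+ than in CD11c+ cells in all 5 conditions, by log2 differences of -1.09 (unimmunised), -0.62 (primed), -0.98 (control IgG), -0.87 (abatacept) and -0.45 (tolerised), the last not called when the arrays were quantile-normalized again. Myc was higher in CD4+ cells by 1.03, 0.28, 0.56, 0.61 and 0.71 in the same order, not called in primed mice (adjusted p = 0.11), where renewed quantile normalization (0.369, adjusted p = 0.028) or a fit of those groups alone (0.278, adjusted p = 0.046) gave a call. Without the Amy1 arrays the Myc call under control IgG was lost (0.41, adjusted p = 0.1). Slc7a5 was 1.01 higher in unimmunised CD4+ cells and 0.43 higher under abatacept, and it differed by 0.09 to 0.24 without a call in the other 3 conditions. Those 3 were called after renewed quantile normalization, at 0.397 (primed), 0.430 (control IgG) and 0.306 (tolerised), and the abatacept call was lost without CD4+ abatacept replicate 1 (0.293, adjusted p = 0.051). Slc1a5 was higher in CD4+ cells by 0.63 in unimmunised mice, 0.39 in primed mice (lost in 3 of 14 alternatives, each of them an array left out) and 1.03 under abatacept, and it differed by 0.23 and 0.25 without a call under control IgG and after tolerisation. Its second probe set also had the higher mean in CD4+ cells in each condition. There the gap was wider in unimmunised mice (5.73 against 4.56) than under abatacept (5.43 against 5.01), unlike on the first. Odc1 changed side, 1.20 higher in unimmunised CD4+ cells and 0.56 lower under abatacept (log2 difference -0.56, adjusted p = 0.0078), a call lost after renewed quantile normalization (-0.292, adjusted p = 0.15). The unimmunised CD4+ arrays carried the neutrophil, erythroid and red pulp macrophage markers given above, and their part was not tested. Tissue was the same for both cell types only in unimmunised mice. Eif2s3y averaged 8.89 in CD4+ and 2.62 in CD11c+ cells of tolerised mice, and 2.51 and 7.63 under control IgG, so sex cannot be told apart from cell type there.

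The test of whether a difference depends on cell type gave 4 calls of 5 for priming, where 41.9% of genes were called. The CD4+ difference minus the CD11c+ difference was -1.44 for Odc1 (adjusted p = 6.4e-05), -0.76 for Myc (0.0055), -0.76 for Slc7a5 (0.0015) and 0.47 for Slc3a2 (0.023), the last lost under 5 of 20 alternatives with an adjusted p of up to 0.071. For Slc1a5 it was -0.24 (95% interval up to 0.23, adjusted p = 0.42). For tolerised against primed mice 0 of 5 were called by limma, where 11.2% of genes were; 1 of 5, Myc (0.43, adjusted p = 0.2), was under 0.05 without adjustment. For abatacept against control IgG 1 of 5 was called, where 14.3% of genes were. That was Slc1a5 at 0.80 (adjusted p = 0.019), and with the mean of its probe sets it was 0.46 (adjusted p = 0.098), without a call. The interactions for Slc7a5 and Slc3a2 under abatacept were 0.21 (adjusted p = 0.47) and 0.12 (adjusted p = 0.69).

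The wider pathway was read in 7 lists of 131 genes, 111 of them on the array. In CD4+ cells, 14 of the 22 MYC-responsive growth genes tested (nucleolar, ribosome-making and cell cycle genes) were lower and 1 higher in primed than in unimmunised mice, with a median log2 difference of -0.37 against 0.02 over all genes. Among them were Nolc1 and Nop58, which encode nucleolar proteins of ribosome production (-0.54 and -0.45), Polr1b, a subunit of RNA polymerase I (-0.88), and Tfrc, the transferrin receptor, which red cell precursors also make (-1.30). In the same comparison Srm, which encodes the spermidine synthase of the Odc1 pathway, was lower (-0.77). Of 14 other amino acid transporters 8 were lower and 3 higher, but 5 of them passed the filter only through the unimmunised arrays and so had to differ; of the remaining 9, 3 were lower and 3 higher. Asparagine synthetase, Asns, went from 9.02 ± 0.12 to 4.98 ± 0.56 (SD, n = 3; log2 difference -4.04, adjusted p = 2.9e-08). Without unimmunised replicate 1 or 2, 2 transporters were called lower, and 3 without unimmunised replicate 3. The transporters that passed the filter only through the unimmunised arrays can fail it there, since it needs 3 arrays above the median. The counts of the other lists stand beside 23.3% of all genes higher and 24.2% lower. Of 8 MYC network genes 3 were higher and 2 lower, of 11 polyamine genes 2 higher and 5 lower (4 lower of 10 without Smox, which passed the filter only through the unimmunised arrays), 4 of 10 genes of glutamine and serine metabolism higher and 4 lower, 4 of 21 genes of amino acid sensing by mTORC1 higher and 5 lower, and 2 of 12 genes of the ATF4 response to amino acid shortage higher and 3 lower. The mTORC1 genes called higher were 2 without primed replicate 3 and 9 after renewed quantile normalization. The marker shifts of the unimmunised arrays given above apply to each of these values.

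In CD11c+ cells the growth list went the other way after priming, with 8 of 22 higher and 1 lower and a median of 0.19 against 0.09 over all genes, but 1 was higher without the arrays with Amy1 above 7, 4 without unimmunised replicate 2 and 5 without primed replicate 2. Of all genes tested 25.5% were higher and 13.2% lower. Of 16 other transporters 6 were higher and 8 lower. Slc38a1 and Slc38a2, which carry glutamine and other small neutral amino acids with sodium, were higher by 1.12 (adjusted p = 1.7e-05) and 1.02 (0.00049). Slc7a7, another light chain that pairs with SLC3A2 and exchanges basic for neutral amino acids, was lower, with a difference of -1.06 (adjusted p = 0.00015), as was Slc43a2, a sodium-independent carrier of large neutral amino acids (-0.39, adjusted p = 0.0016). Serine synthesis enzyme gene Psat1 was 1.45 higher (adjusted p = 6.7e-05). Of 9 MYC network genes 4 were higher and none lower. Mycl, a paralogue of Myc expressed in dendritic cells, was 1.63 higher (adjusted p = 1e-05), at 8.00 ± 0.19 against 6.36 ± 0.09, where Myc itself gave no call. Of 10 glutamine and serine genes 5 were higher and none lower (2 higher without the Amy1 arrays), of 10 polyamine genes 2 were higher and 1 lower, of 21 mTORC1 genes 3 and 5, and of 12 ATF4 genes 2 and 3. The lower mTORC1 count was 2 without the Amy1 arrays, and the higher MYC network count was 2 with the mean of all probe sets. The marker lists of the CD11c+ fraction shifted in the same comparison, as given above.

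Under abatacept against control IgG, 13.4% of all genes tested were lower and 3.33% higher in CD4+ cells. Of the glutamine and serine metabolism genes 5 of 10 were lower and 1 higher (median -0.22 against -0.07 over all genes). Asns fell by 1.20 (adjusted p = 0.0068), Psat1 by 0.61 (0.007), Phgdh, which starts serine synthesis, by 0.52 (0.0059), and Got2, the mitochondrial aspartate aminotransferase, by 0.49 (0.0067). Of 14 other transporters 1 was lower, Slc38a1 (-0.58, adjusted p = 0.0016). Of the 22 growth genes 2 were higher and 2 lower, a count that ranged from 0 to 4 higher and 1 to 4 lower over the alternatives. All 13 dividing cell markers were called lower in the same comparison, with a median of -1.76, and their part in these values was not tested. In CD11c+ cells 4 of 16 transporters were higher and 5 lower, where 6.43% of all genes tested were higher and 8.86% lower. Slc38a2 (-1.04, adjusted p = 0.0025) and Slc38a1 (-0.61, adjusted p = 0.0046) were lower and Slc7a7 was higher (0.75, adjusted p = 0.0059), which is for each the opposite sign to priming; the 2 comparisons share no array. Mycl was lower, at -0.63 (adjusted p = 0.016). The transporter counts fell to 1 higher and 1 lower without the Amy1 arrays and to 1 and 3 without control IgG replicate 3, and they ranged from 1 to 7 higher and 1 to 5 lower over all alternatives.

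**Figure D5:**
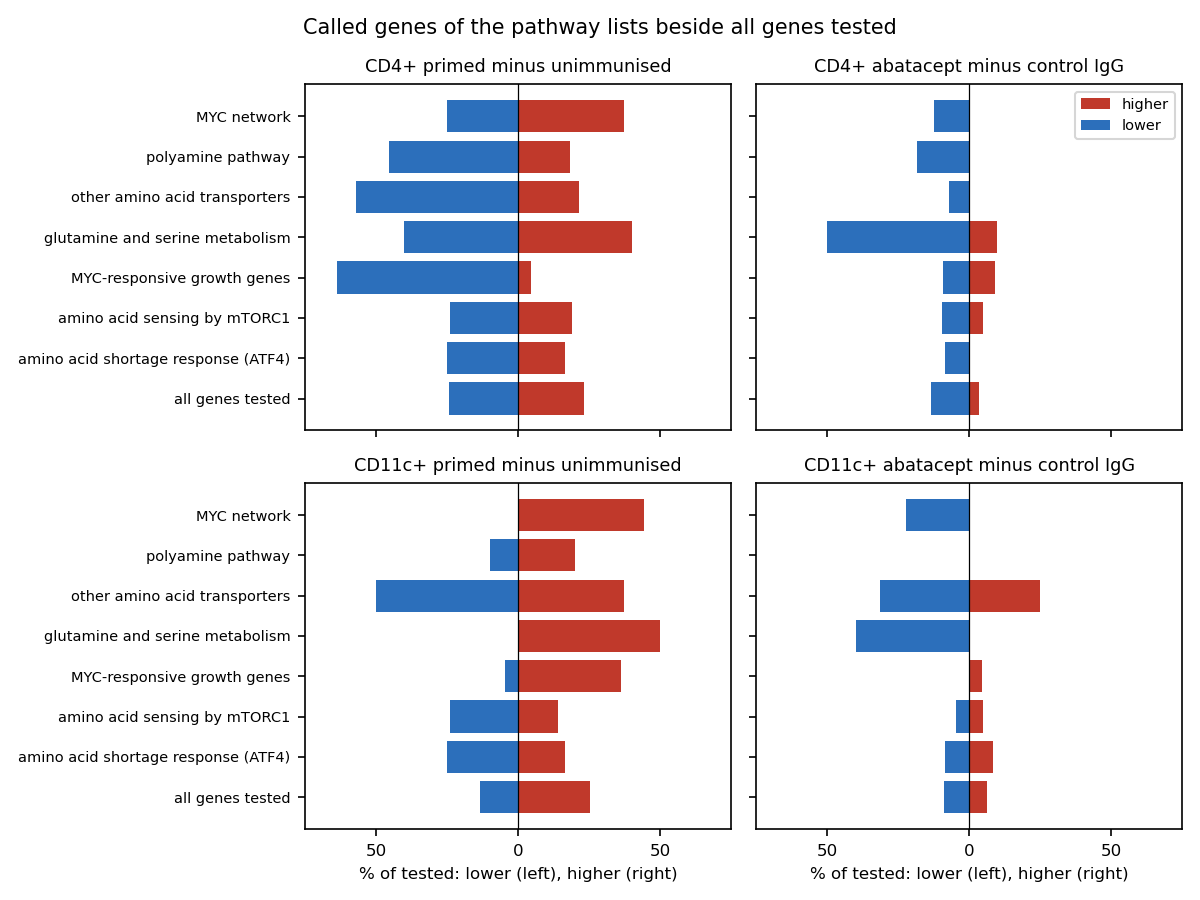
Share of tested genes called higher (red, right) or lower (blue, left), in percent, for 7 pathway lists and for all genes tested, in 4 comparisons. The growth genes are mostly lower in primed than in unimmunised CD4+ cells (14 of 22), and glutamine and serine metabolism is the list with the largest lower share in CD4+ cells under abatacept (5 of 10).

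For each gene the 3 genes with the most similar pattern were taken from those tested, by Pearson correlation over the 15 CD11c+ arrays or the 12 lymph node CD4+ arrays. In CD11c+ cells those nearest to Slc3a2 were Prkar1b, Treml4 and Skp2 (each r = 0.98), and those nearest to Slc7a5 were Cul3 (0.96), Gsn (0.95) and Atp8b2 (0.95). Extl3 (0.95), Plxnc1 and Tspan33 (both 0.93) were nearest to Slc1a5. Odc1, whose CD11c+ groups overlapped, came closest to Car2 (0.86), Glrx5 (0.85) and Bola3 (0.84), and Myc to Zscan22 (0.81), Stk40 and Naa60 (both 0.80). In CD4+ cells Itprip (0.94), Il6st (0.93) and Jun (0.92) were nearest to Slc3a2, and Zbtb14 (0.92), Ddhd2 (0.90) and Arhgef3 (0.88) to Slc7a5. Nearest to Myc were Mixl1 (0.89), Pcgf5 and Daam2 (both 0.87), to Slc1a5 Cmc4 (0.90), Trip12 (0.87) and Ccnt2 (0.86), and to Odc1 Guf1 (0.88), Bccip and Cnot9 (both 0.87). Each is the highest of many values over arrays that share groups, and they describe likeness of pattern only.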

How the data were processed

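Total RNA of the 30 samples (50 ng each) was amplified, and biotin-labelled for microarrays, as the labels describe. The authors deposited log2 values for each probe set, made with RMA, per the submitters' processing notes; no version is given. RMA includes quantile normalization, so differences are relative to all other transcripts. Values ran from 1.667 to 13.242 with array medians of 4.4555 to 4.544. Precision is limited by how many arrays there are.

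GEO's platform annotation gave 28898 of 45118 probe sets a single symbol, and these were used; 551 had several and 15669 none. A gene was tested if its level exceeded the median on 3 or more arrays: 10322 over the 15 CD4+ arrays, 10203 over the 15 CD11c+ arrays and 10838 over all 30. Comparisons used lmFit and eBayes of limma 3.58.1 (R 4.3.3; 10 or 20 residual degrees of freedom, two-sided), with Benjamini-Hochberg adjustment over all genes tested and calls at 0.05. The procedure was tested on simulated data. Figures used matplotlib 3.10.9 in Python 3.11.15. The 5 genes, the 7 pathway lists, the 12 marker lists and the comparisons were chosen with earlier results of these data known. From each pathway list at most 4 called genes were named per comparison, those with the smallest adjusted p. Alternatives were the groups compared alone, no filter, renewed quantile normalization, array weights, a trended robust prior, a replicate block, averaging a gene's probe sets, each array left out, and the CD11c+ arrays with Amy1 above 7 left out.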

Additional observations from a re-analysis of the deposited data

Results flagged for a closer look

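The difference between primed and unimmunised mice was not the same in the 2 cell types for 4 of the 5 genes, by the interaction term of limma over all 30 arrays (CD4+ minus CD11c+, log2). Of 10838 genes tested, 41.9% were called for that term. The term was -1.44 for Odc1 (SE 0.25, adjusted p = 6.4e-05), -0.76 for Myc (SE 0.21, adjusted p = 0.0055), -0.76 for Slc7a5 (SE 0.18, adjusted p = 0.0015) and 0.47 for Slc3a2 (SE 0.16, adjusted p = 0.023). The Slc3a2 call was kept under only 15 of 20 alternatives. The tissue differed between the CD4+ groups of that comparison and was the same for the CD11c+ groups. The unimmunised CD4+ arrays also carried the neutrophil, erythroid and red pulp macrophage markers given above, so dependence on cell type cannot be told apart from either. For abatacept against control IgG the difference between cell types was 0.80 for Slc1a5 (SE 0.23, adjusted p = 0.019), whose second probe set moved by -0.41 in CD4+ and -0.53 in CD11c+ cells.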

How the results depend on the processing

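Of 40 called differences of the 5 genes, 28 kept their call and direction under every alternative run, and none of the 582 alternatives turned the direction of a called one. A call was lost in 40 of these alternatives and gained in 17 of those of uncalled differences. The count of called genes stayed within 1.5 times in 267 of 292 alternatives. No strong pairing of arrays by replicate number was seen, but groups of 3 arrays cannot exclude one. Deviations of same-numbered arrays correlated at -0.23 to 0.13 in CD4+ and -0.19 to 0.33 in CD11c+ cells, with 2 and 8 of 30 pairs over 0.1. They correlated at -0.18 to 0.04 over the 15 pairs of a CD4+ and a CD11c+ array of the same condition and number. With the replicate number as a block, 0 calls were lost and 1 was gained, Slc1a5 under abatacept in CD11c+ cells (-0.47, adjusted p = 0.036), so that the count there was 3.

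Counts that moved by over 1.5 times were these. CD4+ abatacept against control IgG gave 2 when only the groups compared were fitted and 2 after renewed quantile normalization. CD4+ abatacept against tolerised gave 0 with only those groups, 0 with array weights and 0 to 1 with an array left out. CD11c+ abatacept against control IgG gave 1 without the filter, 0 without the Amy1 arrays and 1 to 2 with an array left out. Between cell types the count was 4 in primed and 4 in control IgG mice after renewed quantile normalization, 1 in control IgG mice without the Amy1 arrays and 1 to 2 in primed mice with an array left out. The abatacept interaction gave 0 with the mean of all probe sets, 0 without the Amy1 arrays and 0 to 1 with an array left out. Over all alternatives the pathway counts of primed against unimmunised CD4+ cells ran from 2 to 9 (transporters, lower), 2 to 9 (mTORC1, higher), 3 to 6 (polyamine, lower) and 1 to 3 (ATF4, higher). In CD11c+ cells the same comparison gave 1 to 10 (growth, higher), 2 to 4 (MYC network, higher), 2 to 5 (glutamine and serine, higher), 1 to 3 (polyamine, lower), 2 to 7 (mTORC1, lower), 1 to 3 (ATF4, higher) and 1 to 4 (ATF4, lower). The cause was not tested.

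Values that carried no call changed sign, without a call, in 47 alternatives of 24 differences. After renewed quantile normalization Slc7a5 was 0.106 (primed) and 0.051 (tolerised) against unimmunised CD4+ cells, Slc3a2 0.014 and Slc1a5 0.022 between tolerised and primed CD4+ cells, Myc -0.008 between primed and unimmunised CD11c+ cells, Odc1 0.011 between cell types under control IgG, and the interactions 0.038 (Slc1a5, priming) and 0.045 (Odc1, tolerised against primed; 0.078 with array weights). With the mean of its probe sets Slc1a5 under abatacept in CD4+ cells was -0.040 against control IgG and -0.170 against tolerised mice. Without the Amy1 arrays, in CD11c+ cells, Odc1 was 0.124 (primed) and 0.042 (tolerised) against unimmunised, 0.063 between control IgG and primed and -0.007 between abatacept and control IgG, Slc7a5 was -0.024 between tolerised and primed, and the abatacept interaction of Slc3a2 was -0.115. With an array left out the ranges in CD4+ cells were -0.076 to 0.056 (Slc7a5, primed against unimmunised), -0.106 to 0.070 (Slc1a5, tolerised against primed), and, for control IgG against primed, -0.025 to 0.157 (Myc) and -0.044 to 0.152 (Odc1). In CD11c+ cells they were, for Odc1, -0.256 to 0.124 (primed) and -0.380 to 0.000 (tolerised) against unimmunised, -0.296 to 0.007 (tolerised against primed), -0.107 to 0.10 (control IgG against primed), -0.090 to 0.114 (abatacept against control IgG) and 0.000 to 0.303 (abatacept against tolerised). There they were also -0.353 to 0.035 for Myc (tolerised against unimmunised), -0.024 to 0.122 for Slc7a5 and -0.009 to 0.163 for Slc1a5 (tolerised against primed), and -0.152 to 0.011 for Slc1a5 (control IgG against primed). The interactions ran from -0.156 to 0.147 (Odc1, tolerised against primed), -0.098 to 0.136 (Myc, abatacept) and -0.008 to 0.204 (Slc3a2, abatacept).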
